A study of Mus musculus with 16 samples.

Results

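Mouse embryonic stem cells that made the R342C form of CTCF were compared with cells that made wild-type CTCF (WT) after 3 days without LIF, and 17275 of the 55291 genes in the deposited table averaged 10 or more normalised counts across the 4 libraries. The genes were chosen by their level and not by their difference. The cells are E14Tg2a embryonic stem cells of strain 129/Ola whose own CTCF carries a degron, a tag through which an auxin triggers destruction of the protein. A transgene that doxycycline switches on supplied R342C or wild-type CTCF. Both lines received 500 μM indole-3-acetic acid, the auxin, and 1 μg/ml doxycycline, given for 2 days per the protocol, so the WT group carries the same degron, transgene system and drugs. "Without LIF" means serum medium from which LIF (leukemia inhibitory factor), the GSK3 inhibitor CHIR99021 and the MEK inhibitor PD0325901 had been left out. The same 2 lines in medium with these 3 additions, and the lines K365T and Q418R without LIF, serve below as further comparisons. Each line and medium had 2 libraries of ribosome-depleted total RNA. The labels do not say whether the 2 libraries came from separate cultures, and each genotype is given as 1 line, so p-values measure the spread between these libraries, and differences between genotypes and differences between cell lines cannot be told apart.

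CTCF binds DNA through a row of zinc fingers and, together with cohesin, anchors chromatin loops and the borders of contact domains. Its binding at imprinting control regions is a textbook case of an insulator that keeps an enhancer from a promoter on 1 parental chromosome. Without LIF and the 2 inhibitors, naive stem cells lose LIF and STAT3 signalling, regain MEK and ERK signalling, and move towards a formative state and the first lineages.

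Recovered reads came to 26515414 and 22615220 in the R342C libraries and to 24314847 and 21870737 in the WT libraries. The WT library of replicate 2 stood apart in its structural RNA: the clone CT010467.1 took 3.97% of its normalised counts, against 1.48% in the WT library of replicate 1. In the R342C libraries that share was not above 2.18%, and Malat1, with 1.43%, led the R342C library of replicate 1. Small structural RNAs made up 0.943% and 0.717% of the R342C libraries and 1.14% and 1.32% of the WT libraries. The median absolute log2 difference between replicates was 0.221 in R342C and 0.268 in WT. Ctcf itself had normalised counts of 5589 and 6032 in R342C and 6242 and 5292 in WT, and the table does not separate the transgene from the endogenous gene. Markers of pluripotent cells were abundant in every library. Pou5f1 stood at 6967 and 6537 in R342C against 7808 and 7348 in WT, and Sox2 at 4934 and 5405 in R342C against 5407 and 4475 in WT.

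With limma's moderated test and Benjamini-Hochberg adjustment over all 17275 genes, 86 genes (0.498%) passed an adjusted p of 0.05, 66 of them higher in R342C (0.382%) and 20 lower (0.116%). Of the 66 higher genes, 56 lay on a single stretch of chromosome 17, and of the 20 lower genes 6 were Xlr genes in 1 cluster of the X chromosome. The genes outside chromosome 17 with the largest rise and falls included Cubn, higher by 3.70 on the log2 scale, and Xlr5a, Xlr3c and Peg3, lower. An unadjusted p under 0.05 was reached by 972 genes (5.63%). All 86 genes had R342C libraries that did not overlap the WT libraries, as did 5115 of all genes tested (29.6%). Of 258 genes with a log2 difference of at least 1 in either direction, 55 passed. The median log2 difference over all genes was 0.01.

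The number of genes called depended on the spread shared by all 16 libraries, and it fell when some single libraries were left out. The shared spread includes libraries in LIF, whose replicates differed less than those without it. Their median absolute log2 difference was 0.158 in R342C and 0.183 in WT, against 0.221 and 0.268 without LIF. This can make p-values without LIF too low, and its size was not tested. With the 4 libraries fitted alone no gene passed, while 677 had an unadjusted p under 0.05. Without the R342C library of replicate 2, 31 genes passed, and without the WT library of replicate 2, 49 passed. On recovered reads edgeR called 52 genes and DESeq2 130.

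**Figure D1:**
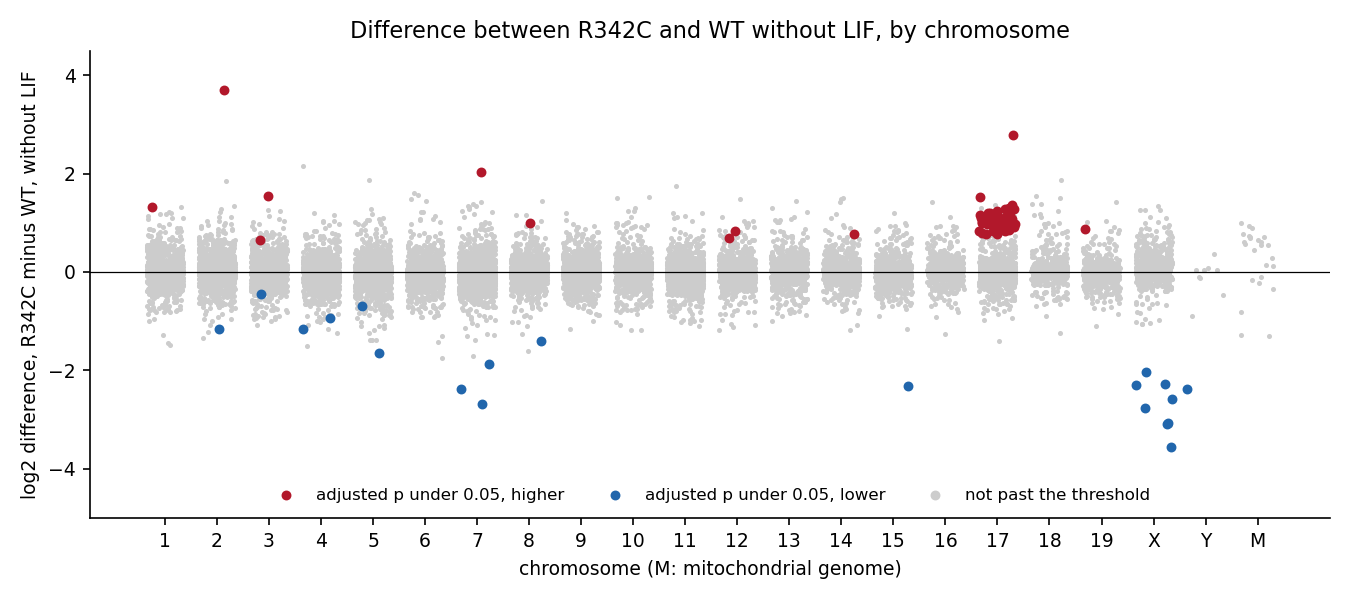
Log2 difference between R342C and WT without LIF (vertical axis) for each gene with a chromosomal position, by chromosome (horizontal axis), 1 point per gene, with genes past an adjusted p of 0.05 in red (higher) or blue (lower). The red points gather on chromosome 17, where 56 genes were higher, and the lowest points lie on the X chromosome.

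Promoters are shown for 5 of the genes with the largest differences outside chromosome 17, to let the lower genes be set beside each other and beside Cubn; they were chosen after their values were seen. Each run covers 250 bases before to 50 bases after the gene's start, from RefSeq on GRCm38.p6, 5′ to 3′ on the gene's strand. Capitals mark the CCAAT box, the letters CCAAT or, on the other strand, ATTGG. They lie at chrX:73265341-73265640 (minus strand, Xlr3c), chrX:73214083-73214382 (plus strand, Xlr4b), chrX:73117653-73117952 (minus strand, Xlr5a), chr7:6730370-6730669 (minus strand, Peg3) and chr2:13491827-13492126 (minus strand, Cubn).
Xlr3c: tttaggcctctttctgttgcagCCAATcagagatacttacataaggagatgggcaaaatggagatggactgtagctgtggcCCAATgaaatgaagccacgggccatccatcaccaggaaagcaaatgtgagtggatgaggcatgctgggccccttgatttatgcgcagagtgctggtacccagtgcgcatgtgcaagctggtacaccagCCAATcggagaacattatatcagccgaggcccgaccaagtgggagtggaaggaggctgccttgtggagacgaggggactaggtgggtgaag
Xlr4b: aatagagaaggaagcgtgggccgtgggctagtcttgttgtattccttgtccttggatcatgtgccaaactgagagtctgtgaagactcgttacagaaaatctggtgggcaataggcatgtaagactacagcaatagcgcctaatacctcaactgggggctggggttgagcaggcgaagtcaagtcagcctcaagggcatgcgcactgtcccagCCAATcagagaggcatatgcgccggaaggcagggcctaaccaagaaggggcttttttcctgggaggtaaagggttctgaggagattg
Xlr5a: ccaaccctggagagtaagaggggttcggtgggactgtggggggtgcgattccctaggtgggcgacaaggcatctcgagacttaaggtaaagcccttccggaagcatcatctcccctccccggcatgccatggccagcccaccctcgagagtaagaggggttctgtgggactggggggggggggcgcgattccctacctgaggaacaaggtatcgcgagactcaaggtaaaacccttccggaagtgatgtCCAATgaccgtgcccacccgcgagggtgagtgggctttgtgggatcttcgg
Peg3: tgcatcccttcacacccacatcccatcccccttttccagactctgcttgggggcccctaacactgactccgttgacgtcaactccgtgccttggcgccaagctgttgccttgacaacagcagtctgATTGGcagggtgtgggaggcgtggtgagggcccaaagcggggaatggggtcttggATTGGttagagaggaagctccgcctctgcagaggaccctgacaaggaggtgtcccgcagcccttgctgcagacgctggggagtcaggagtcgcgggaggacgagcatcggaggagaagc
Cubn: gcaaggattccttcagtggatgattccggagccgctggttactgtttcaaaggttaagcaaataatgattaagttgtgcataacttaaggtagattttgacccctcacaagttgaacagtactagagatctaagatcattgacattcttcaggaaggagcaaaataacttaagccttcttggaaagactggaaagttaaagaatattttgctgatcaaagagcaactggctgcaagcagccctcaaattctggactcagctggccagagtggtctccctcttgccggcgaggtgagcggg
The CCAAT box was found on either strand in 37.9% of all 27025 promoters of this length and in 39.1% of the 11729 promoters of tested genes. Among genes called lower in R342C it was found in 15 of 18 promoters (83.3%). These 18 include the 6 promoters of the called Xlr genes, all of which held it. These 6 are not independent sequences, since the Xlr4a and Xlr4b promoters are 98.6% identical over 292 aligned bases and the Xlr3b and Xlr3c promoters 98.1% over 269. Among called genes of the chromosome 17 stretch 18 of 45 promoters (40%) held it. A core of the CTCF motif (CC, any 3 bases, AG, any 2 bases, GGC, on either strand) was in 8.56% of all promoters and 12.7% of those of tested genes. It was in 2 of 18 promoters of genes called lower, in none of the 6 of called Xlr genes and in 10 of 45 of called genes on the chromosome 17 stretch (22.2%). The Cubn promoter held neither run of letters. These are matches of letters in the windows shown and say nothing of whether a factor binds there.

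The stretch on chromosome 17 begins with Clip4, which starts at base 71768473 of mm10, and runs for 23.1 Mb to the last called gene, which ends at 94878321. It holds 82 tested genes, and their log2 differences were all above 0, with a median of 0.99 (quartiles 0.86 and 1.12), a 1.99-fold higher level in R342C. Of these, 56 passed the test and 76 had libraries that did not overlap, against 0.498% and 29.6% of all genes tested. By level, 54 of 66 with a mean of at least 100 passed, and 2 of 16 with a lower mean. Clip4, which codes for a protein of the family that binds the ends of microtubules, had 264 and 258 in R342C against 95.7 and 134 in WT, higher by 1.18 (SE 0.23, limma adjusted p 0.0362). It passed in 0 of 4 fits with a library left out, and not with edgeR, upper-quartile scaling or array weights, so the start of the stretch rests on a call that depends on these choices. Wdr43, a gene for ribosome assembly and the nearest gene before it with a mean of at least 100, had 5233 and 5272 in R342C against 5643 and 5058 in WT. The 698 tested genes of chromosome 17 before Clip4 had a median of -0.03, and none passed. The start was set at the first called gene from 70 Mb on, so the 17 tested genes from 70 Mb to Clip4 could not include a call. Over all 99 tested genes from 70 Mb on, the median was 0.96 and 89 had differences above 0. Between 25 and 45 of the 56 passed again when 1 of the 4 libraries was left out.

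The genes of the stretch have diverse roles. Birc6, a large inhibitor of apoptosis, had 10809 and 10434 in R342C and 5355 and 4222 in WT, higher by 1.16 (SE 0.14, limma adjusted p 0.00132). Msh6, which takes part in recognising mismatched bases, had 10612 and 10922 in R342C and 5338 and 4594 in WT, higher by 1.12 (SE 0.13, limma adjusted p 0.000973). Nearby lies Epcam, an epithelial adhesion molecule, with 4864 and 4665 in R342C and 2315 and 3116 in WT, the only called gene of 19 tested on the list of cadherins and genes of epithelial-mesenchymal transition. Its own difference of 0.83 (limma adjusted p 0.0205) was below the median of its neighbours, and it did not pass without either R342C library, without the WT library of replicate 1 or with edgeR.

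Several genes of the stretch act in signalling. Prkd3, a protein kinase D, had 1974 and 2062 in R342C and 902 and 862 in WT, higher by 1.19 (SE 0.11, limma adjusted p 0.000228). Sos1, which loads Ras with GTP, had 2666 and 2693 in R342C and 1230 and 1397 in WT. Map4k3, a kinase of nutrient signalling, had 1253 and 1423 in R342C and 597 and 518 in WT. Calm2, one of the calmodulin genes, stood at 7039 and 8057 in R342C and 4293 and 4008 in WT. Differences beyond the upper quartile were seen in Kcng3, a potassium channel subunit, higher by 1.53, and in Ltbp1, which binds latent TGF-beta, Ston1 and Fez2, higher by 1.36, 1.29 and 1.28. Nlrc4, an inflammasome sensor, lay apart at 2.79 (SE 0.47, limma adjusted p 0.0118), with 32.7 and 71.1 in R342C and 3.83 and 3.37 in WT. Across the alternatives its difference ran between 1.73 and 3.84, and it passed in 1 of 4 fits with a library left out, the one without the R342C library of replicate 1, and not with edgeR. Kcng3 passed in 0 of these 4 fits, Ltbp1 in 1 and Fez2 in 3, while Birc6, Msh6, Prkd3, Sos1, Map4k3, Calm2 and Ston1 passed in all 4. The 12 genes with a mean of at least 100 that did not pass, among them Epas1, Rhoq and Ypel5, had differences between 0.55 and 1.36.

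In LIF the median difference of the same 82 genes was 1.01, and 48 passed there, against 0.417% of all genes tested. The K365T and Q418R lines, set against the same WT libraries without LIF, had medians of 0.79 and 0.92, and since these comparisons share the WT libraries, their likeness is given only as values. Set directly against each other, R342C and K365T differed past the threshold in 4 of the 82 genes (Nlrc4, Eif2ak2, Mta3 and Ppm1b), and R342C and Q418R in 0, where 8.65% and 2% of all genes tested passed. The number of copies of this stretch in each line was not tested.

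**Figure D2:**
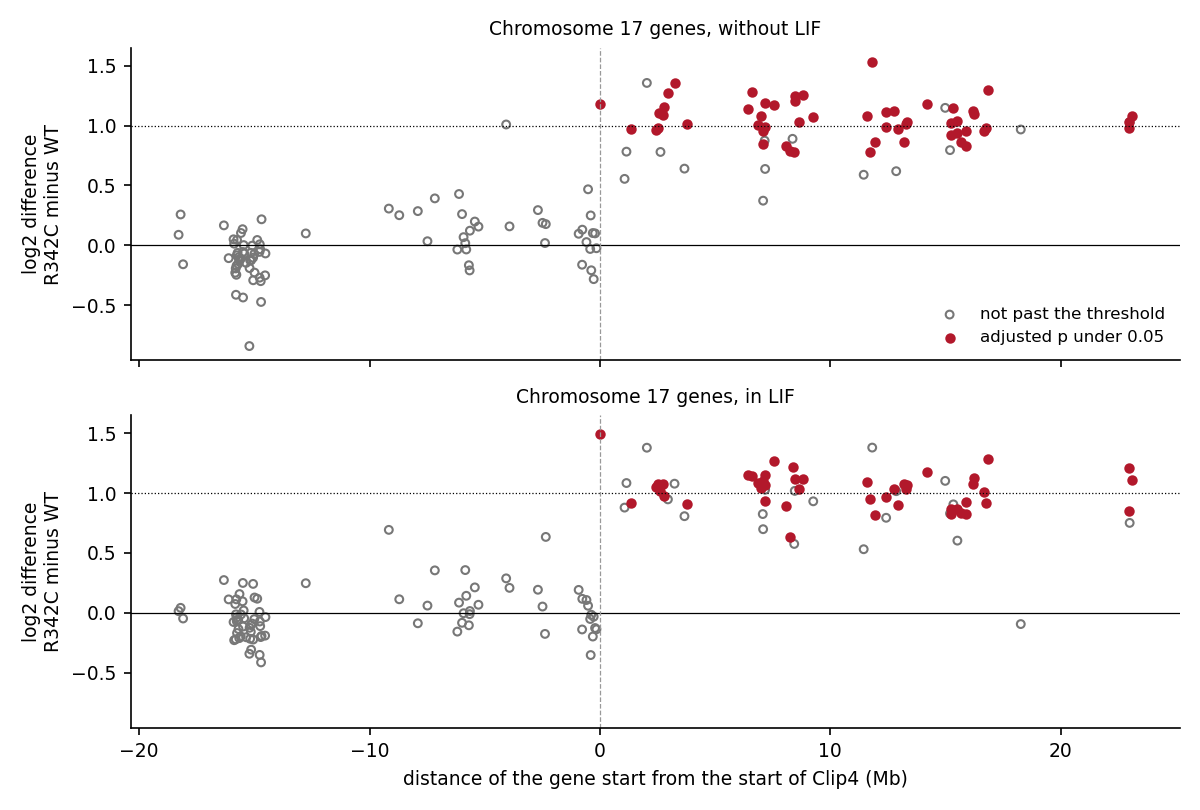
Log2 difference between R342C and WT (vertical axes) without LIF (top) and in LIF (bottom) for chromosome 17 genes with a mean of at least 50, by distance of the gene's start from the start of Clip4 in Mb (horizontal axis), with filled points past an adjusted p of 0.05. Points left of the dashed line scatter around 0, and points right of it lie around 1 (dotted line) in both media, with medians of 0.99 without LIF and 1.01 in LIF over all tested genes of the stretch.

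Outside the stretch 30 genes passed, 10 higher and 20 lower. With the 99 tested genes of chromosome 17 from 70 Mb left out of the test, 10 of these 30 still passed: Cubn, Efhc2, Gm6969, N4bp2l2, Peg3, Xlr3a, Xlr3b, Xlr3c, Xlr4b and Xlr5a. On recovered reads edgeR called 10 of the 30, among them Cubn, Efhc2, Gm6969, N4bp2l2, Peg3, Rex2, Xlr3b, Xlr3c and Xlr4b. Of the 30 genes, Cubn, Efhc2, Peg3, Xlr3c and Xlr4b passed with each of the 4 libraries left out in turn. Except for the 6 Xlr genes and the pair Zfp981 and Rex2, none of the 30 had another called gene within 500 kb.

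The Xlr genes are X-linked and related to Sycp3, a component of the meiotic chromosome axis, and some have been described as imprinted in mouse brain. All 7 tested members of the cluster between bases 73074345 and 73292976 of the X chromosome (mm10) were lower in R342C by their fitted values, and 6 passed. In LIF the same 7 were lower in R342C as well, with differences from -1.57 (Xlr3b) to -3.87 (Xlr5a). Xlr3b, Xlr3c, Xlr4b, Xlr5a and Xlr5b passed in LIF, and Xlr3a and Xlr4a did not. The values that follow are those without LIF. Xlr3c had 52.5 and 29.7 in R342C against 296 and 461 in WT, a fall of 3.10 (SE 0.37, limma adjusted p 0.000973). Xlr4b had 2.58 and 3.18 in R342C against 39.2 and 46.0 in WT (-2.76, SE 0.36, limma adjusted p 0.00158). In both genes the R342C libraries were low and the WT libraries high, with no overlap.

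Xlr5a had 1.72 and 0 in R342C against 32.5 and 84.2 in WT. That is 2 recovered reads in R342C and 109 in WT, a ratio 59.2 times lower, with a 95% exact binomial interval of 16 to 495 that covers counting error only. Xlr3a had 134 and 59.4 in R342C against 357 and 870 in WT (-2.58), Xlr3b 132 and 78.5 in R342C against 354 and 517 in WT (-2.03), and Xlr4a 9.47 and 1.06 in R342C against 38.3 and 111 in WT (-3.08). Xlr4c was under the level for testing, with 1.72 and 0 in R342C and 14.4 and 12.3 in WT. Xlr5b, with 3.44 and 0 in R342C and 30.6 and 60.6 in WT, missed the threshold (limma adjusted p 0.0755). The WT replicates differed by more than 2 times in Xlr3a, Xlr4a and Xlr5a, and these 3 and Xlr3b did not pass without the R342C library of replicate 2 or without the WT library of replicate 2. Xlr3a, Xlr4a and Xlr5a also did not pass with edgeR. The genes are close copies, so how reads were divided among them is uncertain.

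The cluster also has single-copy neighbours. F8a, which lies between Xlr4b and Xlr3c, had 80.1 and 73.2 in R342C and 66.0 and 93.2 in WT, and Zfp275 had 1305 and 1364 in R342C and 1282 and 1200 in WT. Pnma5, on the other side of the cluster, had 528 and 241 in R342C and 655 and 732 in WT, and did not pass (limma adjusted p 0.772). Gm18336, a predicted gene beyond Zfp275, had 241 and 136 in R342C and 319 and 435 in WT. Its difference of -1.02 did not pass either (limma adjusted p 0.188), though its groups did not overlap. Set directly against the other mutants, all 6 called Xlr genes were lower in R342C than in K365T and than in Q418R. These contrasts use the same R342C libraries by which the 6 genes were called against WT, so they are not independent support. For Xlr4b the difference was -3.02 from K365T (limma adjusted p 0.000401) and -2.64 from Q418R (limma adjusted p 0.00342), with 63.2 and 42.2 in K365T and 50.6 and 29.5 in Q418R. On the same X chromosome, Rhox5, a homeobox gene of the reproductive tract and early embryo, had 1012 and 1007 in R342C and 457 and 643 in WT, and Rhox6 63.7 and 104 in R342C and 40.2 and 24.7 in WT; neither passed.

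**Figure D3:**
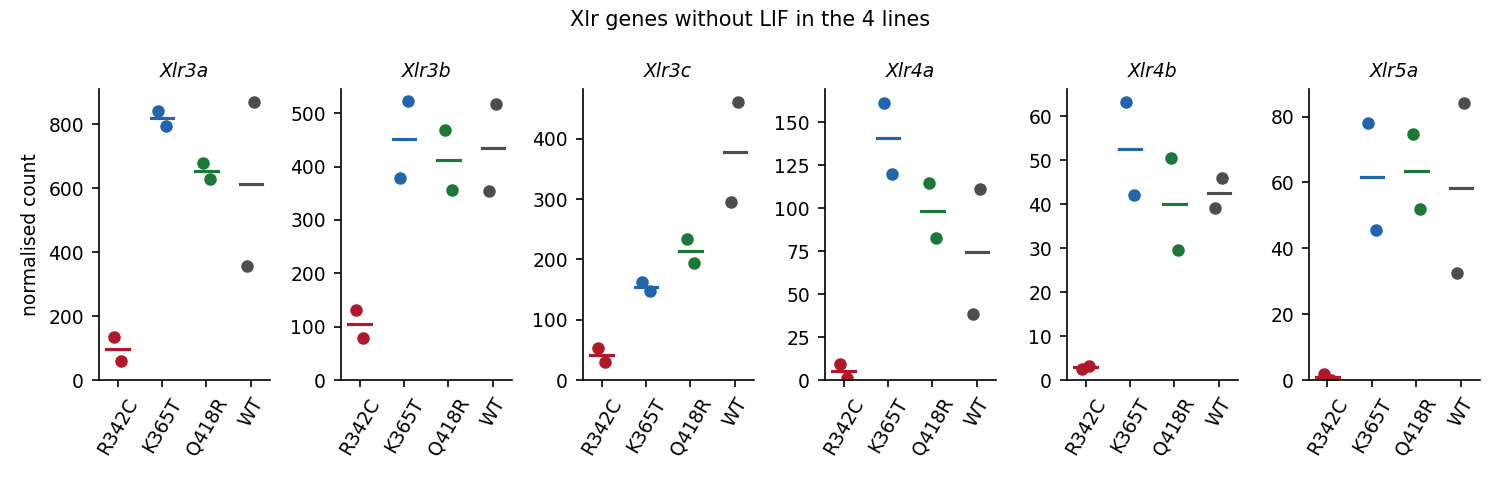
Normalised counts (vertical axes, from 0) of the 6 called Xlr genes without LIF in R342C, K365T, Q418R and WT, with 1 point per library and a line at the mean of 2. Both R342C points lie below every point of the other 3 lines in each panel.

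Of 51 tested imprinted genes, 2 passed, both lower, where 0.498% of all genes tested passed, and the median over the list was 0.05. Peg3, a zinc finger gene expressed from the paternal allele, had 1455 and 787 in R342C against 7533 and 6416 in WT, a fall of 2.69 (SE 0.25, limma adjusted p 0.000228). Peg3 was lower in LIF as well (-2.94, limma adjusted p 0.0002), with 423 and 255 in R342C and 2697 and 2417 in WT. It was also low in the other mutants, with 907 and 951 in K365T and 1825 and 1700 in Q418R, and neither contrast with R342C passed. Usp29, its imprinted neighbour with which it shares a control region, had 140 and 57.3 in R342C and 330 and 278 in WT, and did not pass (limma adjusted p 0.152). Zim1, a further gene of that domain, had 49.1 and 41.4 in R342C and 36.4 and 32.6 in WT.

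H19, a non-coding RNA made from the maternal allele beside Igf2 and a control region that CTCF binds, had 26.7 and 17 in R342C against 80.4 and 202 in WT (-2.38, SE 0.41, limma adjusted p 0.0145). In contrasts with the same R342C libraries, H19 was also lower in R342C than in K365T, by -2.59 (limma adjusted p 0.00251). Against Q418R, H19 was lower by -2.16 (limma adjusted p 0.0165). It did not pass without the R342C library of replicate 2, without the WT library of replicate 2 or with edgeR. Igf2, the growth factor gene of the same domain, had 61.1 and 187 in R342C and 141 and 38.2 in WT, so that its groups overlapped.

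Cubn codes for cubilin, an endocytic receptor of the visceral endoderm and kidney. It had 475 and 800 in R342C against 33.5 and 57.2 in WT, higher by 3.70 (SE 0.49, limma adjusted p 0.00171). In LIF Cubn was near 0 in both lines, with 2.36 and 0.931 in R342C and 4.67 and 2.16 in WT. The direct contrasts with K365T (146 and 339) and Q418R (1007 and 384) did not pass. Against the same WT libraries Cubn was higher in these lines too, by 2.24 in K365T and 3.71 in Q418R (limma adjusted p 0.00874 and 0.00104).

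Of 18 tested endoderm markers Cubn was the only gene called, 15 had differences above 0, and the median was 0.55. Gata6, a driver of primitive endoderm, had 71.5 and 88.1 in R342C and 23.9 and 32.5 in WT (limma adjusted p 0.186). Sox17 had 26.7 and 23.3 in R342C and 6.70 and 11.2 in WT, and Lama1, a laminin of the basement membrane, 501 and 745 in R342C and 349 and 260 in WT. These 3 did not pass. Gata4, Lrp2, the partner receptor of cubilin, and Dab2 had groups that overlapped, and Afp, the foetal serum protein of this lineage, was at or near 0 in all 4 libraries. In bulk RNA more cells of a type and more RNA per cell cannot be told apart, and the part of endoderm-like cells in the result for Cubn was not tested.

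Other higher genes outside chromosome 17 included Zfp536, a zinc finger gene of the nervous system, with 62.8 and 27.6 in R342C against 7.66 and 6.73 in WT (2.04, SE 0.38, limma adjusted p 0.0229). Nr5a2, a nuclear receptor of naive pluripotency, had 161 and 262 in R342C against 89.0 and 70.7 in WT (1.33, SE 0.25, limma adjusted p 0.0248). It was higher still in K365T (711 and 476) and in Q418R (496 and 305). Nr5a2 was lower in R342C than in K365T by -1.48 (limma adjusted p 0.00323), and the contrast with Q418R did not pass. Tex15, a germline gene that acts in transposon silencing, had 1164 and 1195 in R342C against 702 and 495 in WT. Neither Nr5a2 nor Tex15 passed without the R342C library of replicate 2 or the WT library of replicate 2, nor Tex15 without the R342C library of replicate 1. Zfp536 did not pass without the R342C library of replicate 1 or without either WT library.

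Efhc2, an X-linked gene for a protein of ciliary axonemes, had 68.9 and 32.9 in R342C against 253 and 253 in WT (-2.31, SE 0.31, limma adjusted p 0.00173). In LIF it was lower as well (-3.07, limma adjusted p 0.000253), with 58.2 and 32.6 in R342C and 403 and 391 in WT. Magea4, another X-linked gene and a member of a family expressed mainly in germ cells, had 46.5 and 13.8 in R342C against 134 and 150 in WT (-2.28, SE 0.42, limma adjusted p 0.0242). Zfy1, a Y-linked zinc finger gene, had 91.3 and 27.6 in R342C and 206 and 382 in WT, and Zfp951 320 and 134 in R342C and 650 and 666 in WT. For Zfy1 and Zfp951 the difference from K365T and that from Q418R passed as well, with the same R342C libraries again lower. The cytochrome P450 gene Cyp2b23 had 584 and 320 in R342C and 1963 and 1302 in WT. All 5 were lowest in the R342C library of replicate 2. Without that library, Magea4, Zfy1, Zfp951 and Cyp2b23 did not pass, nor did Magea4 and Zfp951 without either WT library, Zfy1 without the WT library of replicate 2 or Cyp2b23 without the WT library of replicate 1.

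**Figure D4:**
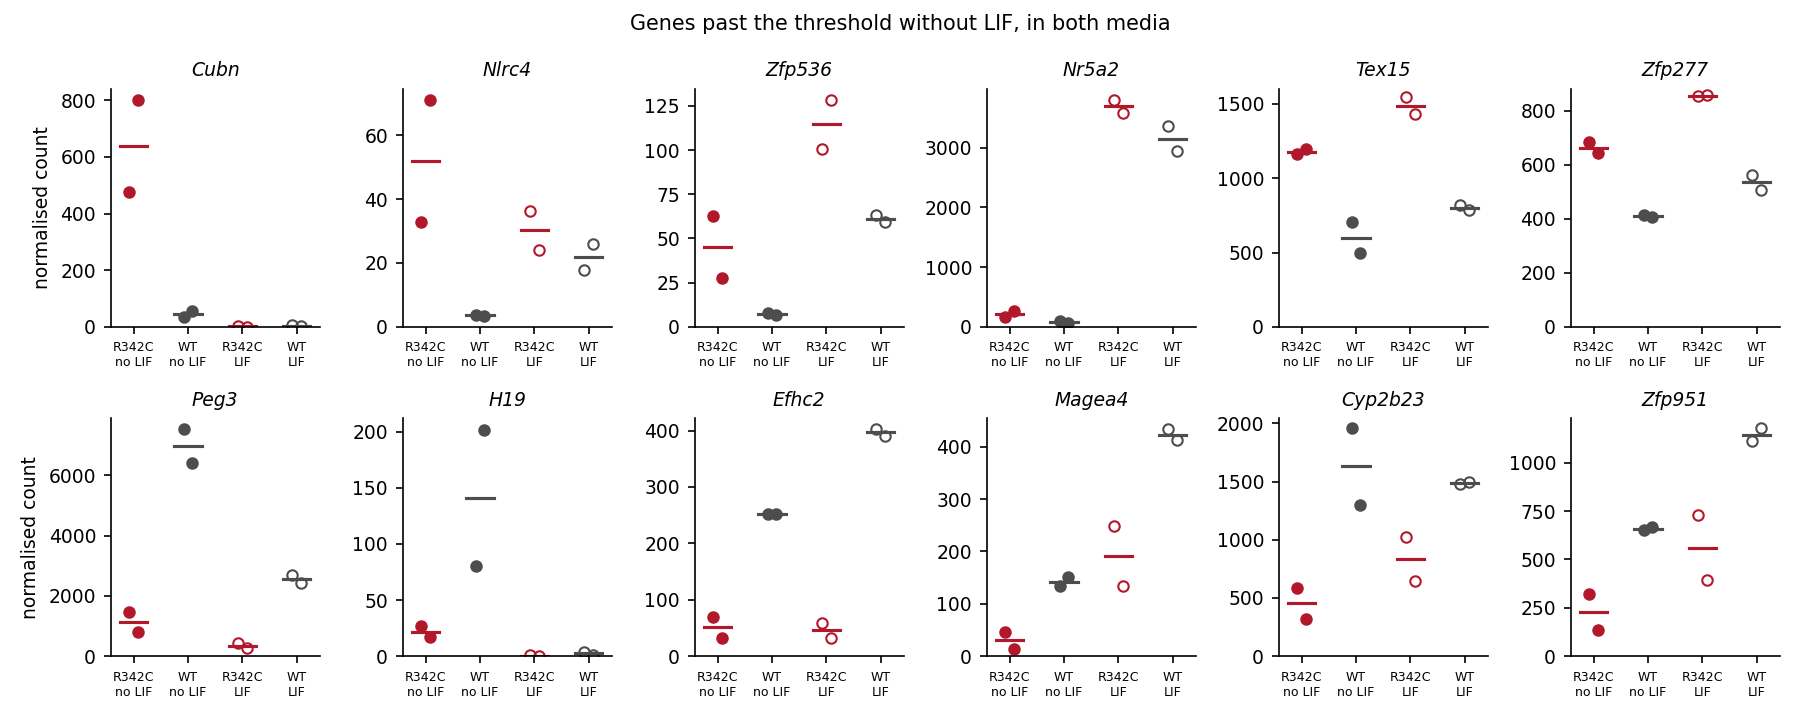
Normalised counts (vertical axes, from 0) of 12 genes called without LIF, in R342C and WT without LIF (filled points) and in LIF (open points), with 1 point per library and a line at the mean of 2. Cubn and H19 are near 0 in LIF in both lines, whereas Peg3 and Efhc2 are lower in R342C in both media.

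Chromosomes were split into windows of 10 Mb, and those holding 8 or more genes with a mean from 100 upwards were kept; 7 of the 257 had a median beyond 0.25 in either direction, among them the 2 on distal chromosome 17. At the end of chromosome 5, from 150 Mb, all 13 tested genes had fitted differences below 0, with a median of -0.69, and 10 had libraries that did not overlap (76.9%), against 29.6% of all genes tested. N4bp2l2 there passed, with 2336 and 2090 in R342C against 3432 and 3700 in WT (-0.69, SE 0.11, limma adjusted p 0.00569). It did not pass without the R342C library of replicate 2 or the WT library of replicate 2. Its neighbours Brca2, for repair of DNA breaks, and Pds5b, a cohesin regulator, did not pass. Brca2 had 3234 and 3324 in R342C and 4942 and 4150 in WT, and Pds5b 3473 and 3721 in R342C and 5578 and 4665 in WT. The median of the 13 genes in LIF was -0.55. Without LIF, K365T and Q418R had medians of -0.48 and -0.32 over these genes against the same WT libraries. N4bp2l2 was lower than WT in these lines too, by -0.77 in K365T and -0.57 in Q418R (limma adjusted p 0.000684 and 0.00665).

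On chromosome 3 from 140 to 160 Mb, 75 of 80 tested genes had differences above 0, with a median of 0.40 (0.31 in LIF), and Lrrc40 was the only one to pass, with 1270 and 1448 in R342C against 868 and 862 in WT. Against the same WT libraries, the medians of these 80 genes were 0.25 in K365T and 0.43 in Q418R. From 120 to 130 Mb of the same chromosome the median of 59 genes was -0.29, and Elovl6, a fatty acid elongase, passed, with 3003 and 3014 in R342C against 4073 and 4101 in WT. The medians of these 59 genes were -0.47 in K365T and -0.09 in Q418R. Elovl6 was lower than WT in these lines too, by -0.42 in K365T and -0.33 in Q418R (limma adjusted p 0.00891 and 0.0490). Neither Lrrc40 nor Elovl6 passed when any 1 of the 4 libraries was left out.

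On the lists of pluripotency genes, Nr5a2 was the only called gene of 17 tested naive markers (median 0.21). Of 15 general and 21 formative and primed markers 0 passed, with medians of 0.08 and 0.09, against 0.01 for all genes. Since only 0.498% of all genes tested passed, lists this short cannot show a lack of calls. Among the 17 naive markers 13 had differences above 0. An unadjusted p under 0.05 was reached by 4 of them, where 5.63% of all genes tested did. Libraries did not overlap for 9 of the 17 (52.9%), against 29.6% of all genes tested. Lin28a had 13591 and 17512 in R342C and 17522 and 14804 in WT, and Trim28 16898 and 19527 in R342C and 19208 and 16503 in WT. Among formative genes, the de novo DNA methyltransferase genes Dnmt3b and Dnmt3a had 17700 and 18329, and 9362 and 9152, in R342C, against 21051 and 13666, and 10687 and 9911, in WT. No member passed on the lists of primitive streak and mesoderm (14 tested), neuroectoderm (14), trophectoderm (15), fibroblast and smooth muscle (12) or endothelial and blood genes (5). Haemoglobin genes were at or near 0 in all 4 libraries.

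Signalling lists gave no call either. The members tested numbered 16 for LIF and STAT3 targets, 20 for MEK and ERK targets, 16 for Wnt targets, 20 for the Nodal and TGF-beta pathway and 16 for the BMP pathway, with medians between 0.08 and 0.27. Etv5, a MEK and ERK target, had 4822 and 6187 in R342C and 5474 and 4041 in WT, and Lefty1, a Nodal antagonist, 2279 and 4274 in R342C and 4899 and 1425 in WT. Both WT and R342C replicates of Lefty1 differed more between themselves than the groups did.

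The 27 tested genes of CTCF, cohesin and their regulators had a median of -0.02 and no call. Wapl, which releases cohesin from DNA, had 11437 and 11651 in R342C and 10108 and 8592 in WT (limma adjusted p 0.557). Of the clustered genes that CTCF is known to regulate, 11 Hox genes were tested, with a median of 0.04, and 7 protocadherin gamma genes, with a median of -0.19, while 1 protocadherin alpha gene and no protocadherin beta gene reached the level for testing. None passed. Libraries did not overlap for 6 of the 7 gamma genes (85.7%) and for 0 of the 11 Hox genes, against 29.6% of all genes tested. An unadjusted limma p under 0.05 was reached by 2 of the 7 gamma genes, where 5.63% of all genes tested did. Of the 7, 5 had differences below 0 and 2 above 0. The lack of calls therefore does not show that the gamma genes were unchanged. Pcdhgc3, the most abundant of the gamma genes, had 490 and 520 in R342C and 550 and 606 in WT.

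A few lists had medians away from 0 without a called member. The 8 tested genes of the two-cell-like state, a rare state of stem cells that resembles the early embryo, had a median of 1.03. Of these 8, 4 had an unadjusted p under 0.05, where 5.63% of all genes tested did. Zscan4c had 61.1 and 27.6 in R342C and 10.5 and 15.7 in WT (limma adjusted p 0.373). Zscan4e had 49.1 and 55.2 in R342C and 15.3 and 20.2 in WT (limma adjusted p 0.159). The Zscan4 genes are close copies at low counts, so the division of reads among them is uncertain.

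Of 19 p53 targets 18 had differences above 0 (median 0.26), among them Cdkn1a, the cell cycle inhibitor p21, with 1973 and 1914 in R342C and 1197 and 1452 in WT (limma adjusted p 0.281). The 13 mitochondrially encoded protein genes had a median of 0.61, with mt-Co1 at 150370 and 184320 in R342C and 89333 and 127250 in WT. The mitochondrial ribosomal RNA mt-Rnr1 went the other way, with 123220 and 66839 in R342C and 158540 and 303040 in WT, and none of these passed. Cytosolic ribosomal protein genes had a median of -0.21, with 83 of 90 below 0 and no call; on TPM, where the median of all genes was itself 0.17, the list's median was -0.05. The WT library of replicate 2, in which structural RNAs took the largest share, held the highest sum over the ribosomal protein list, and the part of RNA composition in these medians was not tested. The lists of germline genes, DNA methylation enzymes, amino acid and unfolded protein stress, proliferation, glycolysis, hypoxia targets, cholesterol synthesis, laminins and basement membrane, Eph receptors and ephrins, the Cxcl12 axis with carbonic anhydrases, histones and small structural RNAs had no call either, with medians between -0.13 and 0.16.

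**Figure D5:**
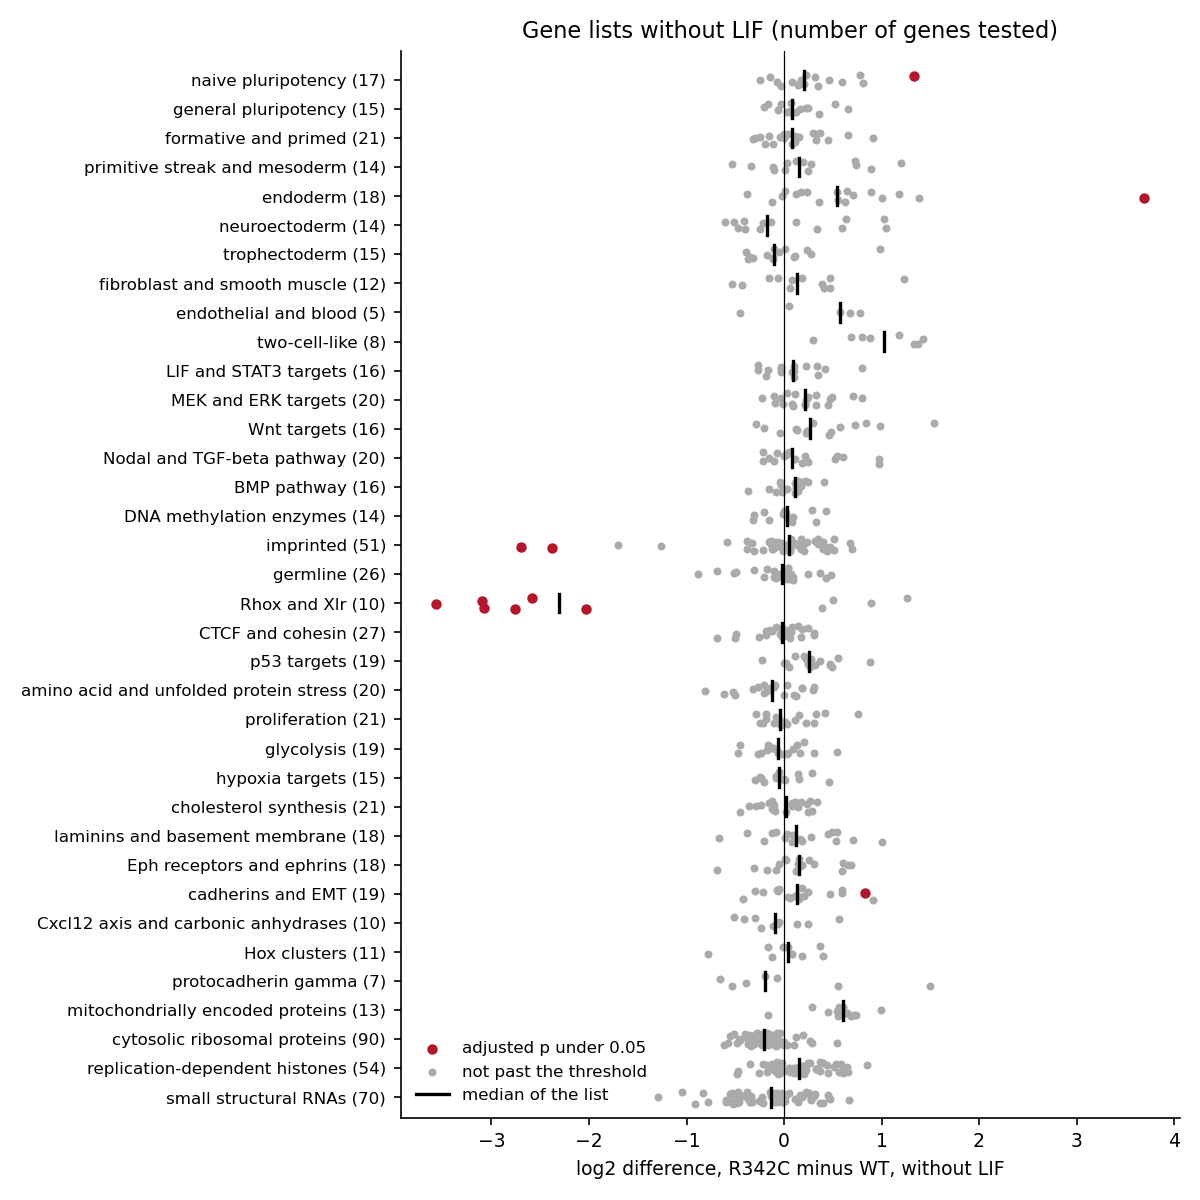
Log2 differences between R342C and WT without LIF (horizontal axis) for the genes tested in each list with at least 5 of them (vertical axis), with 1 point per gene, red past an adjusted p of 0.05, and a black line at the list's median. Red points appear in 5 lists, and the Rhox and Xlr list has a median of -2.31, with its 6 called genes below -2.

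Of the 86 genes, 55 also passed between R342C and WT in LIF, all in the same direction, where 72 of the same 17275 genes (0.417%) passed. The overlap is 64.0% of the calls without LIF and 76.4% of those in LIF, and 45 of the 55 lie on the chromosome 17 stretch. A test of the difference itself, the R342C by medium interaction, called 0 genes (0%) with limma, where 259 had an unadjusted p under 0.05 (1.5%). With edgeR 0 genes passed it, and with DESeq2 1 did, Skida1 (-1.95, DESeq2 adjusted p 0.0119), with 42.2 and 41.4 in R342C and 98.6 and 96.5 in WT without LIF, and 374 and 428 in R342C and 245 and 241 in WT in LIF. Of the 86 genes, 10 had an unadjusted limma p under 0.05 in the interaction, among them Cubn, H19 and Nr5a2. For Cubn the interaction was 4.08 (SE 0.69), with a limma adjusted p of 0.350. Same-numbered libraries of a line deviated together across the media, with correlations of 0.272 to 0.304. The fit did not model this, which can make the interaction test too cautious, so a lack of calls does not show equal differences.

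Set directly against the other mutant lines without LIF, R342C differed in 1494 genes from K365T and in 346 from Q418R. Both counts fell when either R342C library was left out, which leaves 1 library in that group, and the cause of the fall was not tested. They also changed with the fit. Against K365T 32 genes passed with the groups fitted alone, 642 on TPM and 1795 with DESeq2. Against Q418R 115 passed on TPM, 144 with edgeR and 626 with DESeq2. Of the 86 genes, 19 passed against K365T and 11 against Q418R, where 8.65% and 2% of all genes tested passed. The 86 genes were chosen with the same R342C libraries that enter these contrasts, so passing them is not independent support. Both contrasts were passed by 10: the 6 Xlr genes, H19, Skida1, Zfp951 and Zfy1, each lower in R342C than in either line. Skida1, for example, was lower by -1.13 than in K365T (limma adjusted p 0.00864) and by -1.52 than in Q418R (limma adjusted p 0.0058). The remaining genes called against WT, Peg3 and Cubn among them, did not differ from both other mutants past the threshold, which does not show that the lines were alike in them. With 1 of the 4 R342C and WT libraries left out, Skida1 and Rex2 passed against WT in 0 of 4 fits and Zfp981 in 1.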

How the data were processed

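Libraries, 16 in all, were sequenced from total RNA with ribosomal RNA removed, per the labels' protocols (stranded kit, 150 bp paired reads). The submitters' processing notes name Trim Galore, STAR, DESeq2 and mm10; versions, counting tool and annotation are not given in the sources used here. The authors deposited normalised counts, a signal that each library's own factor had scaled, and TPM. Divided by the value of 1 read, 0.861 to 1.12 in the 4 libraries compared, 100% of the normalised counts checked were whole within 0.05. The check covered 20679 to 21742 values per library and left out values of 0 and those of the most abundant genes.

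After adding 4, normalised counts were taken to log2 and fitted in R 4.3.3 by limma 3.58.1 (trend), with 8 group means over all 16 libraries and 8 residual degrees of freedom. The addition of 4 compresses differences of genes with low counts. P was adjusted by Benjamini-Hochberg over the 17275 genes, at a threshold of 0.05. The contrasts were R342C against WT in each medium, their difference, and R342C against K365T and Q418R. Alternatives used edgeR 4.0.16 and DESeq2 1.42.0 on recovered reads of 12 libraries, TPM plus 0.1, other scalings, filters and libraries left out. The fit was also run on simulated data in which all genes shared the same level of spread beyond counting error. The real libraries differed in spread, so that run does not measure error rates here. GENCODE M21 gave positions for 97.9% of the genes tested. Same-numbered replicates of R342C and WT without LIF did not deviate together, so the fit had no replicate term. Those of a line in the 2 media did deviate together, which the fit did not model. Only counting error is covered by the interval given for Xlr5a.

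Genes were named by a rule: Ctcf; the 15 largest rises and falls among called genes with a mean of at least 50, no overlap and no clone name; up to 4 called genes of each of 38 lists, or its 2 most abundant; and the 5 largest on distal chromosome 17 and on the X chromosome. Some of these are not named, and others were named after their values were seen. A few genes are not reported here. The genes, lists and tests were chosen with earlier results of these data known.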

Additional observations from a re-analysis of the deposited data

How the results depend on the processing

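The number of genes called between R342C and WT without LIF, 86, was 78 to 85 under other pseudocounts, filters, upper-quartile and TMM scaling, and 66 on TPM or with array weights. It was 52 with edgeR, 130 with DESeq2, 0 with the 4 libraries fitted alone, and 10 without chromosome 17 from 70 Mb and also with p adjusted over the other genes only, an adjustment chosen after seeing the data. With 1 library left out it was 31 to 86, and 29 of the 86 genes passed in all 4 such fits, 24 on the chromosome 17 stretch. On TPM 87.9% of calls were higher, against 76.7%, and the median of all genes was 0.17. The median of distal chromosome 17, 0.96 from 70 Mb on, was 0.89 with a pseudocount of 16, 0.78 without a filter, 1.11 on TPM, and 0.92 to 0.96 with 1 library left out. The interaction had 1 call with DESeq2 and 0 in every other fit.

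Against K365T, 1494 calls became 642 on TPM, 32 with the groups fitted alone, 756 with array weights, and 461 to 1695 with 1 library left out. Against Q418R, 346 became 115 on TPM, 144 with edgeR, 626 with DESeq2, and 47 to 429 with 1 library left out. Upper-quartile scaling moved the share of higher calls to 36.0% against K365T (from 52.0%) and to 53.8% against Q418R (from 67.3%). For 97 named genes, 1718 of 1903 values stayed on their side of the threshold, 66 of these, all of genes not called, with another sign, and 185 no longer passed, none with another sign. The cause was not tested for any of these shifts.

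Deviations of same-numbered replicates of R342C and WT without LIF correlated at -0.375, so the numbers were not taken to pair these samples. Other pairs differed: the correlation was 0.459 between R342C and K365T and -0.0152 between R342C and Q418R without LIF, and 0.272 to 0.304 between the 2 media of a line. With a replicate block 82 genes passed against WT, 1574 against K365T, 347 against Q418R and 0 in the interaction, and with the crossed pairing, chosen after seeing the data, 90 passed against WT.

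On the chromosome 17 stretch 2 of 16 genes with a mean under 100 passed (median 0.88), against 54 of 66 above it (median 1.01), and the part of depth in this was not tested.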
